A study of Bos taurus with 24 samples.

Results

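The early transcriptional response of Holstein dermal fibroblasts (DF) to lipopolysaccharide (LPS) was examined by comparing the 4 Holstein samples taken 2 h after LPS with the 4 Holstein samples taken at 0 h, before LPS. These 8 samples of the 24 in the series were chosen by breed and hour in the sample labels, and were paired by the animal number in the label. The cultures came from skin of 4 Holstein heifers, a dairy breed, and DF of 4 Angus heifers, a beef breed, of the same age served as the other breed. The animals carried no transgene or deletion, every culture was a primary culture from 1 animal, and lysates of duplicate wells were pooled, so a sample stands for 1 animal at 1 time. The 0 h groups had no LPS, and the 2 h groups and the Holstein 8 h group had LPS at 100 ng/ml. There was no group kept for 2 h without LPS, so the effects of LPS and of 2 h in the challenge plate cannot be told apart. Poly-A RNA was sequenced and counted per gene, and the comparison covered all 27550 rows with a gene symbol among 59846 rows.

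LPS, the lipid-linked sugar of the outer membrane of Gram-negative bacteria, is recognised by the receptor TLR4 together with LY96 and CD14. The receptor signals through the adaptors MYD88 and TICAM1 to the transcription factor NF-kB, which is held in the cytoplasm by inhibitors such as NFKBIA, and to MAP kinases, which induce the immediate-early transcription factors of the FOS, JUN and EGR families. NF-kB induces chemokines and cytokines, and also its own inhibitors, so that the first wave of transcription carries its own feedback. Fibroblasts are not professional immune cells, but as resident cells of the skin and the udder they are known to release chemokines that recruit neutrophils.

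The 8 libraries held 51014538 to 91183437 counts, and 3 counts, taken as the smallest detectable level, stood for 0.033 to 0.059 CPM, the counts in a library scaled to a total of 1000000. In the 0 h libraries of animals 2 and 4, each COL1A1 count stood for fewer covered bases than elsewhere (66.2 to 67.1 bases there and in 2 Angus libraries, against 111.8 bases or more in the 20 remaining libraries of the series), for which the sources used here give no reason. The value without these animals is given for the changes at 2 h that then lost their call or moved by more than 1.5-fold. The label was checked against markers: 10 of 10 fibroblast markers were expressed, with summed levels of 69900 to 120700 CPM at 0 h and 67620 to 82750 CPM at 2 h, and COL1A2 averaged 30560 ± 4502 CPM (SD, n = 4) at 0 h and 31090 ± 3286 CPM at 2 h. The 7 keratinocyte markers summed to 0.768 to 12.2 CPM at 0 h and 0.781 to 11.8 CPM at 2 h, none was in the test, and the high value at both times was that of animal 1, where KRT5 was at 8.83 CPM at 0 h and 8.00 CPM at 2 h. Of the leukocyte markers, PTPRC was at 0.282 to 0.587 CPM at 0 h and 0.425 to 0.630 CPM at 2 h, and the 6 summed to 1.69 to 3.16 CPM at 0 h and 4.00 to 5.16 CPM at 2 h. CD68, a lysosomal protein of macrophages that other cells also make, was the only one of them in the test and was higher at 2 h (log2 fold change 1.08 ± 0.20 SE), though not past the threshold without animals 2 and 4 (0.82). The endothelial, melanocyte and smooth muscle markers summed to at most 4.56, 3.37 and 42.7 CPM in any library. What part other cell types have in the results was not tested. In such bulk samples, fewer cells of a type and less RNA per cell cannot be told apart.

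After 2 h of LPS, 409 of 13043 genes tested were past the threshold, that is 3.14%. This threshold required an FDR below 0.05 in edgeR's likelihood-ratio test, a change of 2-fold or more, and a mean level over 1 CPM. Of these genes 285 (2.19% of those tested) were higher and 124 (0.951%) were lower. The rises were larger than the falls: 82 genes rose at least 4-fold, 44 at least 8-fold and 26 at least 16-fold, whereas 8 fell at least 4-fold and 1 at least 8-fold. The change had the same direction in all 4 animals for 400 of the 409 genes, as it did for 54.8% of all genes tested, and the 0 h and 2 h values did not overlap for 370 of them, against 23.5% of all genes tested. A total of 14507 symbol rows stayed below the expression filter (at least 1 CPM in 50% of the 8 samples) and were not tested. Of the higher genes, 34 had passed the filter only through their 2 h samples, and 10 of the lower genes only through their 0 h samples, so for these a difference was a condition of being tested. The edgeR quasi-likelihood test also called 400 of the 409, and 349 were called without animals 2 and 4, where 57 missed the threshold and 3 were not tested.

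**Figure D1:**
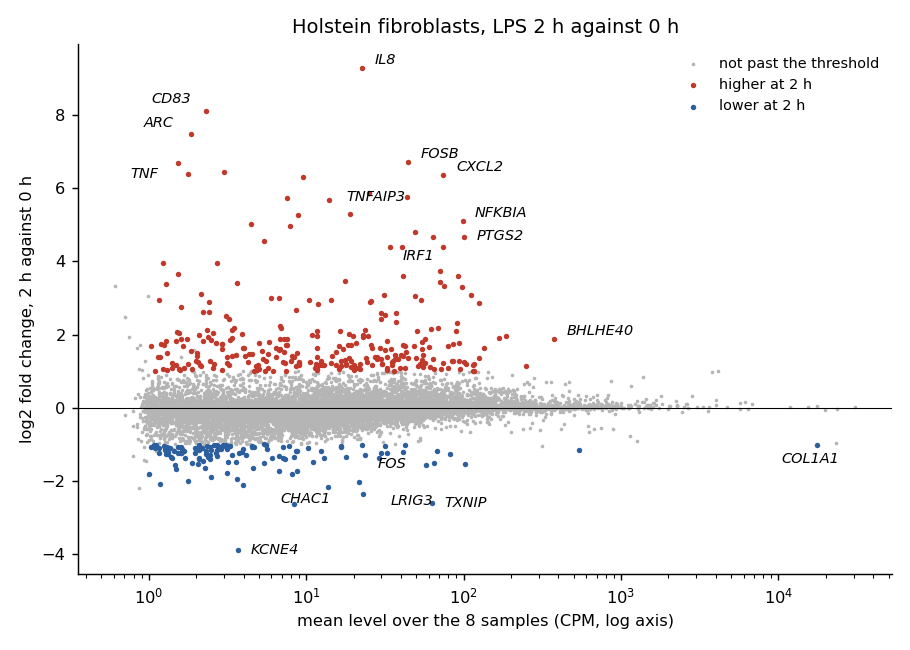
Mean level of each tested gene over the 8 Holstein samples (CPM, log axis) against its log2 fold change at 2 h, one point per gene, red for the 285 higher and blue for the 124 lower genes. IL8, at 9.28, has the largest fold change drawn and KCNE4, at -3.89, the most negative. CX3CL1, with no count at 0 h, is not drawn, and COL1A1, labelled near the right edge, is the gene with fewer covered bases per count in some libraries.

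Chemokines, the secreted proteins that attract leukocytes, were among the largest rises. All 3 tested members of the neutrophil-attracting CXC list rose, where 2.19% of all genes tested did. IL8 (chromosome 6, 90559882 to 90563647 on build UMD v3.1), the main neutrophil attractant, was at 0.086, 0.071, 0.053 and 0.064 CPM in animals 1 to 4 at 0 h and at 20.5, 77.9, 30.6 and 50.8 CPM at 2 h. IL8 had passed the expression filter only through its 2 h samples, so groups that do not overlap were a condition of its test. Its log2 fold change was 9.28 (8.58 without animals 2 and 4). As the 0 h libraries held only 19 IL8 counts in all against 13004 at 2 h, the ratio of the summed levels was 654 with a 95% interval of 418 to 1086 for counting error only. CXCL2, which binds the same receptor, went from 1.82, 1.71, 1.32 and 1.83 CPM to 100.0, 185.2, 88.8 and 215.1 CPM (log2 fold change 6.36). Its row, from 90695494 to 90824841 on chromosome 6, is much longer than a chemokine gene and contains the whole of LOC100847175, whose reads it shares, so the value is less certain. CXCL6 was already present at 0 h (11.1 ± 9.11 CPM) and reached 87.4 ± 65.4 CPM (3.06 ± 0.12 SE), with animal 2 highest at both times.

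Of the other chemokines, 3 of 6 tested rose and none fell, where 2.19% and 0.951% of all genes tested did. But of the 3, CX3CL1 and CCL5 had passed the expression filter only through their 2 h samples, as had IL8 above. CX3CL1, a membrane-tethered chemokine of monocytes and T cells, had no count in any 0 h library and was at 2.41, 13.9, 4.10 and 7.62 CPM at 2 h. Set against 3 counts per library it was at least 155-fold higher, with the 4 animals between at least 56.0-fold and at least 329-fold. CCL5, an attractant of T cells and monocytes, rose from 0.330, 0.268, 0.473 and 0.704 CPM to 11.7, 42.4, 10.0 and 45.5 CPM (5.68, and 4.72 without animals 2 and 4). The monocyte attractant CCL2 rose from 14.6 ± 7.55 to 170.2 ± 83.6 CPM (3.60 ± 0.18 SE). CXCL12, CCL26 and CXCL16 had log2 fold changes of -0.11, -0.03 and 0.19. The remaining 12 rows of the list were below the filter. Among them was CCL20, an attractant of dendritic and Th17 cells, with 0 counts in the 0 h libraries and 0.890, 3.97, 0.552 and 1.80 CPM at 2 h.

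Cytokines were led by TNF, the early inflammatory cytokine, which was at 0.029, 0.014, 0.011 and 0.064 CPM at 0 h and 1.61, 4.90, 1.30 and 4.26 CPM at 2 h. From 7 and 870 counts, its ratio of summed levels was 119 (95% counting interval 57.4 to 296). Without animals 2 and 4 its mean level no longer passed 1 CPM, although its log2 fold change was 6.18. IL6 (chromosome 4, 31578311 to 31582679), which drives the acute-phase response, rose from 0.401, 0.226, 0.588 and 0.405 CPM to 8.84, 19.9, 10.4 and 30.4 CPM (5.27 ± 0.36 SE, 4.28 without animals 2 and 4). Its relatives rose with it: LIF went from 3.34 ± 0.38 CPM to 77.7, 111.8, 69.6 and 120.7 CPM (4.79 ± 0.11), IL11 from 0.397 ± 0.059 to 2.83 ± 1.16 CPM (2.74 ± 0.21) and CLCF1 had a log2 fold change of 1.98 ± 0.08. With CSF1, the macrophage growth factor (1.68 ± 0.19), 6 of the 12 tested members rose, where 2.19% of all genes tested did. Of the 6, TNF, IL6 and IL11 had passed the filter only through their 2 h samples, so for them a rise was a condition of being tested. TNFSF18 was the member that fell, from 94.1 ± 41 to 41.9 ± 20 CPM (-1.18 ± 0.05). IL15, with -0.83 ± 0.13, did not reach a fold change of 2. A total of 14 rows of this list, IL1A among them, were below the filter. IL1A was at 0.587, 0.028, 0.168 and 0.512 CPM at 0 h and at 0.758, 3.83, 1.49 and 3.82 CPM at 2 h, higher in 4 of 4 animals.

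**Figure D2:**
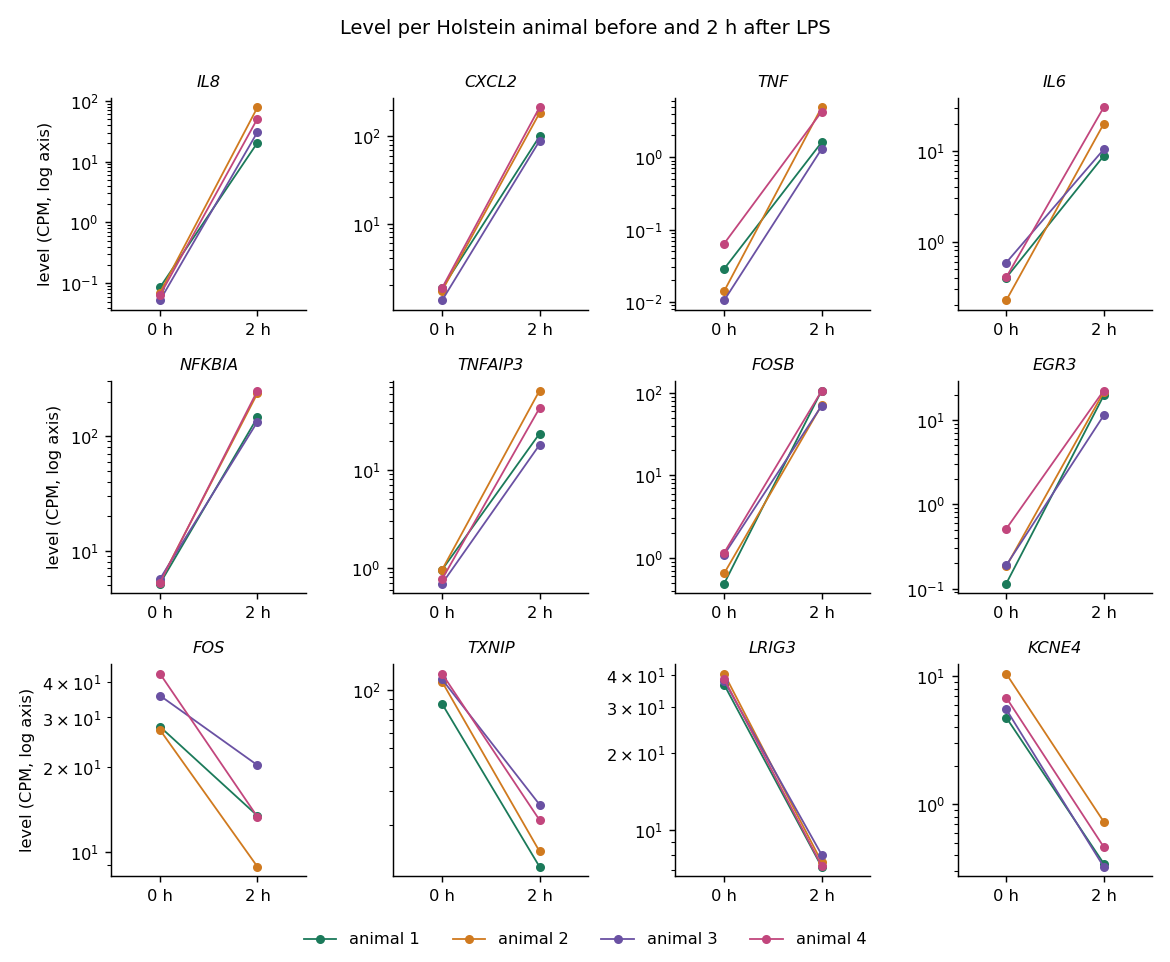
Levels of 12 genes (CPM, log axes that differ between panels) at 0 h and 2 h, one line for each of the 4 Holstein animals. All 4 lines rise for the first 8 genes and fall for FOS, TXNIP, LRIG3 and KCNE4, and animals 2 and 4 are highest at 2 h for IL8, CXCL2, TNF, IL6, NFKBIA and TNFAIP3. IL8, TNF, IL6, TNFAIP3 and EGR3 were tested only because of their 2 h levels, and KCNE4 only because of its 0 h levels. For these genes the direction was a condition of being tested.

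In the NF-kB list the members with the largest rises were inhibitors. NFKBIA (chromosome 21, 46065546 to 46068942), the inhibitor that NF-kB itself induces, went from 5.16, 5.36, 5.67 and 5.27 CPM to 145.9, 236.9, 133.7 and 250.0 CPM (5.10 ± 0.16 SE). The SD of the 0 h values was 0.220 CPM, and the 2 h values fell into a higher pair, animals 2 and 4, and a lower pair. TNFAIP3, the deubiquitinase A20 that switches the pathway off, rose from 0.845 ± 0.136 to 37.3 ± 21.2 CPM (5.29, and 4.66 without animals 2 and 4), and the nuclear IkB protein NFKBIZ, needed for a set of secondary genes, from 9.47 ± 0.82 to 131.6 ± 42.4 CPM (3.74 ± 0.16). Among the subunits, RELB (2.12 ± 0.09) and NFKB1 (1.84 ± 0.12) rose, while RELA and NFKB2 had log2 fold changes of 0.16 and 0.92. In all, 9 of the 15 tested members of the list rose and none fell, where 2.19% and 0.951% of all genes tested did. The median of the list was 1.40, against -0.02 over all genes tested. One of the 9, TNFAIP3, had passed the filter only through its 2 h samples.

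Upstream, of 26 tested genes of LPS sensing and TLR4 signalling, 2 rose, none fell and 24 were not past the threshold. Of all genes tested 2.19% rose. The median of the list was 0.03. With the FDR limit alone, 10 of the 26 were higher and 4 lower, against 2081 and 2859 of all 13043 genes tested. TLR4 was at 2.94, 5.22, 2.51 and 3.71 CPM at 0 h and at 3.28, 4.25, 2.48 and 3.096 CPM at 2 h, groups that overlapped (log2 fold change -0.11 ± 0.13, FDR 0.59 by the edgeR likelihood-ratio test). Its partner LY96 had a log2 fold change of 0.07 ± 0.08 and the adaptor MYD88 one of -0.09 ± 0.06. The co-receptor CD14 was below the filter, with 83 counts in the 0 h libraries and 92 in the 2 h libraries. The 2 that rose were MAP3K8, the kinase that links NF-kB signalling to ERK, from 2.29 ± 0.37 to 14.9 ± 3.42 CPM (2.67 ± 0.14), and the adaptor TICAM1 (1.41 ± 0.13). TLR2, the receptor for bacterial lipoproteins, was also below the filter, at 0.399 to 0.437 CPM at 0 h and 0.532 to 1.30 CPM at 2 h. In the RNA-decay list, where proteins destroy cytokine messages, 2 of 8 rose. These were the endonuclease ZC3H12A (2.90 ± 0.16) and ZFP36L2 (1.27 ± 0.08), whereas ZFP36, the best known of them, was at 83.4 ± 6.28 CPM at 0 h and 99.8 ± 9.96 CPM at 2 h (0.26 ± 0.07).

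Immediate-early transcription factors moved in opposite directions within a family. FOSB went from 0.487, 0.649, 1.09 and 1.15 CPM to 106.4, 70.9, 69.6 and 105.5 CPM (6.72), and FOSL1 from 13.7 ± 2.8 to 137 ± 16 CPM (3.33 ± 0.15). FOS itself, whose product pairs with JUN proteins as do the products of FOSB and FOSL1, fell from 27.8, 27.1, 35.8 and 42.8 CPM to 13.5, 8.89, 20.3 and 13.3 CPM (-1.29 ± 0.15). The groups did not overlap, but without animals 2 and 4 the change in FOS was -0.93 and short of a fold change of 2. Among the zinc-finger EGR factors, EGR3 rose from 0.115, 0.183, 0.189 and 0.512 CPM to 19.6, 21.5, 11.4 and 22.4 CPM (6.30) and EGR2 by 3.38 ± 0.25 (3.40, with a mean level below 1 CPM, without animals 2 and 4), whereas EGR1 was at 20.7 ± 6.63 CPM at 0 h and 26.2 ± 7.20 CPM at 2 h, with overlapping groups (0.35 ± 0.16, FDR 0.072 by the edgeR likelihood-ratio test). The orphan nuclear receptors NR4A1 (3.44 ± 0.07), NR4A3 (2.82 ± 0.14) and NR4A2 (1.37 ± 0.10) and the AP-1 member JUNB (2.32 ± 0.08) also rose, while JUN had 0.26. ARC, best known from neurons, rose from 5 to 1083 counts, a ratio of summed levels of 207 (95% counting interval 88.4 to 638). Counted together, 11 of 21 tested members rose and FOS alone fell, with a median of 1.37, where 2.19% of all genes tested rose. ARC, EGR3 and EGR2 had passed the filter only through their 2 h samples, which favours this count and this median. In the related KLF list, 1 of 12 rose and 1 fell. KLF10, a factor induced by TGF-beta, had 1.06 ± 0.08 (0.98, and short of the threshold, without animal 1), and KLF2, a restraint on inflammation in vessels, had -1.005 ± 0.12. The KLF2 call was lost in 3 of 4 fits that left out an animal, with values of -0.95 without animal 1, -0.96 without animal 2 and -0.98 without animal 4, and it was -0.90 and short of the threshold without both animals 2 and 4.

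Feedback inhibitors of the MAP kinases rose as well. The ERK phosphatases DUSP5, from 0.495 ± 0.198 to 15.2 ± 2.36 CPM (4.95 ± 0.19), and DUSP6, from 3.26 ± 0.89 to 25.4 ± 7.37 CPM (2.96 ± 0.08), were joined by ERRFI1, an inhibitor of the EGF receptor, from 31.6 ± 12.4 to 219.6 ± 34.4 CPM (2.86 ± 0.16). The change in DUSP6 was close to equal in the 4 animals, between 2.85 and 2.96 on the log2 scale with a pseudocount of 0.1 CPM. Of the Sprouty proteins, SPRY4 (1.75 ± 0.19) and SPRY2 (1.22 ± 0.12) rose and SPRY1 fell, from 7.32, 3.96, 5.27 and 6.50 CPM to 2.19, 1.42, 1.45 and 0.945 CPM (-1.95 ± 0.21). DUSP1, a phosphatase of p38 and JNK, had -0.07. In all, 5 of 13 tested members rose and 1 fell, where 2.19% and 0.951% of all genes tested did. DUSP5 had passed the filter only through its 2 h samples.

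In the interferon arm, 2 of 6 tested interferon regulatory factors rose at 2 h and none fell, where 2.19% of all genes tested rose. IRF1, a transcription factor that NF-kB induces, rose from 2.67, 2.93, 3.19 and 2.73 CPM to 41.5, 92.8, 41.9 and 84.9 CPM (4.40 ± 0.21), in the same higher and lower pairs of animals as NFKBIA, and IRF5 rose by 1.58 ± 0.16. The row of IRF1 overlaps that of LOC100848038 on the other strand, which the counts cannot separate. Of 12 tested interferon-stimulated genes 1 rose and none fell, with a median of -0.32. The one was CMPK2, a nucleotide kinase, at 0.573, 0.550, 0.998 and 0.363 CPM at 0 h and 2.88, 3.01, 1.81 and 2.31 CPM at 2 h (2.04 ± 0.30). IFIT5, IFIT1 and MX1 had log2 fold changes of -0.83, -0.50 and 0.05. The antiviral genes ISG15, RSAD2 and MX2 stayed below the filter: ISG15 had 12 counts at 0 h and 61 at 2 h over 4 libraries each, RSAD2 14 and 119, and MX2 3 and 13. Among STAT factors and SOCS inhibitors, 1 of 13 rose, CISH, a cytokine-signalling inhibitor (1.69 ± 0.20), and STAT3 had 0.15. CISH had passed the filter only through its 2 h samples.

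Surface and secreted effectors of inflammation rose in part. Of 9 tested rows of the adhesion and immune surface list, 6 rose, where 2.19% of all genes tested did. Among the 6, CD83 and VCAM1 had passed the filter only through their 2 h samples. CD83, a glycoprotein known from mature dendritic cells, went from 4 counts at 0 h in all to 2.70, 7.95, 2.53 and 5.34 CPM (ratio 319, 95% counting interval 124 to 1173). Tissue factor F3, the starter of blood clotting, rose from 3.85 ± 1.96 to 77.5 ± 23.7 CPM (4.38 ± 0.14), the leukocyte adhesion molecule VCAM1 from 0.380 ± 0.163 to 3.90 ± 2.97 CPM (3.11 ± 0.34, and 2.31 without animals 2 and 4) and the costimulatory receptor CD40 by 1.72 ± 0.17. ICAM1, another adhesion molecule, has 2 rows on chromosome 7. The row starting at 16012113 was just past the threshold (1.00 ± 0.19, but 0.59 without animals 2 and 4), and that starting at 45026348 was not (0.37).

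Against 2.19% of all genes tested, 1 of 11 tested genes of prostaglandin synthesis and receptors rose. This was PTGS2, the inducible cyclooxygenase, at 5.76, 5.49, 6.21 and 13.7 CPM at 0 h and 159.6, 195.5, 127.5 and 293.3 CPM at 2 h (4.68 ± 0.13). Animal 4 was highest at both times, and no 2 h value came near the 0 h values. PTGS1, the constitutive enzyme, had -0.19 and the synthase PTGES 0.84. Of 9 acute-phase, complement and pattern-recognition genes, 3 rose: the soluble pattern-recognition protein PTX3 from 0.249 ± 0.142 to 8.67 ± 6.04 CPM (5.03 ± 0.26), complement factor CFB (3.41 ± 0.35, 2.51 without animals 2 and 4) and TNFAIP6, a hyaluronan-binding protein (1.62 ± 0.18). PTX3 had passed the filter only through its 2 h samples. Complement C3 had -0.20. SAA3 was below the filter, with 3 counts at 0 h and 67 at 2 h, and shares its sequence with other serum amyloid A genes.

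Among matrix enzymes, the hyaluronan synthases HAS1 and HAS2 rose, and both had passed the filter only through their 2 h samples. HAS2 rose from 0.457 ± 0.327 to 10.3 ± 5.05 CPM (4.55 ± 0.32, and 3.75 without animals 2 and 4) and HAS1 from 0.687 ± 0.311 to 4.12 ± 1.41 CPM (2.62 ± 0.20), and both encode enzymes that make this matrix sugar. HAS3, the third such enzyme, was below the filter, with 139 counts over the 0 h libraries and 266 over the 2 h libraries. PLAUR, the urokinase receptor, rose from 70.5 ± 11.2 to 264.3 ± 43.5 CPM (1.91 ± 0.09), and the aggrecanase ADAMTS4 by 1.17 ± 0.15 (0.80, and short of the threshold, without animals 2 and 4). These were 4 of 18 tested members, and none fell. Of 18 fibroblast matrix genes tested none rose, where 2.19% of all genes tested did, 17 were not past the threshold and the median was 0.03. COL1A1 was the one called lower (-1.02 ± 0.34). Its levels were 10370, 32760, 9814 and 47600 CPM at 0 h and 9182, 9186, 9825 and 11370 CPM at 2 h, so that only animals 2 and 4, whose 0 h libraries had fewer covered bases per count of this gene, stood apart. Without them COL1A1 had -0.08, and the quasi-likelihood test of edgeR gave an FDR of 0.059 with all 4 animals.

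Growth and differentiation signals included a few strong rises. HBEGF, a ligand of the EGF receptor, rose from 0.315 ± 0.084 to 5.12 ± 1.82 CPM (3.95 ± 0.22) and TGFB1 from 46.3 ± 5.07 to 97.0 ± 9.07 CPM (1.07 ± 0.05), 2 of 22 tested growth factors, and none fell. HBEGF had passed the filter only through its 2 h samples. BMP4 had -0.70 and VEGFA 0.40. In the list of TGF-beta, BMP and Notch target regulators, 7 of 17 rose and none fell, with a median of 0.90. Over all genes tested, the background for this list and the growth factors, 2.19% rose and 0.951% fell. ID1, a target of BMP signalling, was at 11.4, 13.9, 6.95 and 6.48 CPM at 0 h and at 67.2, 49.5, 48.4 and 48.6 CPM at 2 h (2.52 ± 0.16). The inhibitory SMAD7 rose from 9.44 ± 1.12 to 50.2 ± 4.65 CPM (2.42 ± 0.07), and the Notch targets HEY2 (1.62 ± 0.28) and HEY1 (1.47 ± 0.17) rose too, although the call of HEY2 was lost in the fit that ignored the pairing of animals (1.35). ID3 and HES1 had -0.32 and -0.34.

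Genes that fell included alpha-arrestins. TXNIP (chromosome 3, 21489097 to 21493258), an arrestin-like protein that blocks glucose uptake and binds thioredoxin, fell from 84.9, 110.6, 113.9 and 121.8 CPM to 12.1, 14.5, 25.4 and 21.1 CPM (-2.61 ± 0.12). Its row lies within that of LOC100848155 on the other strand, whose reads cannot be separated from its own. Its relatives ARRDC4, from 13.3 ± 2.90 to 4.11 ± 1.47 CPM (-1.73 ± 0.11), and ARRDC3 (-1.19 ± 0.12) fell, and ARRDC2 rose from 6.00 ± 1.03 to 26.7 ± 9.98 CPM (2.09 ± 0.19). The list of 7 thus held 3 that fell and 1 that rose, where 0.951% and 2.19% of all genes tested did.

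In the circadian list, 1 of 14 tested genes rose and 2 fell, where 2.19% and 0.951% of all genes tested did. BHLHE40, a clock repressor that many stimuli induce, rose from 138.1, 132.7, 175.9 and 204.4 CPM to 594.3, 568.3, 588.8 and 599.9 CPM (1.88 ± 0.11), with 2 h levels that were nearly the same in the 4 animals. NFIL3 fell from 42.0 ± 1.98 to 16.3 ± 1.51 CPM (-1.36 ± 0.07), and NR1D1, the nuclear receptor REV-ERB alpha, from 11.9 ± 0.98 to 4.75 ± 0.62 CPM (-1.34 ± 0.09). NR1D1 overlaps THRA on the genome. Core genes PER1, PER2 and ARNTL had -0.14, 0.07 and 0.14.

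Survival and stress genes were mixed. The counts below stand beside 2.19% of all genes tested that rose and 0.951% that fell. The early-response gene IER3 rose from 23.2 ± 5.69 to 201.0 ± 74.4 CPM (3.08 ± 0.08) and the caspase inhibitor BIRC3 from 11.8 ± 1.04 to 95.5 ± 30.9 CPM (2.96 ± 0.12), whereas GADD45A, a growth arrest gene, fell from 116.1 ± 7.48 to 48.3 ± 4.08 CPM (-1.27 ± 0.07), 2 higher and 1 lower among 12. In the antioxidant and metal list 2 of 11 rose, haem oxygenase HMOX1 (1.26 ± 0.10) and the metallothionein MT2A, which went from 2.97, 2.12, 4.61 and 2.13 CPM to 3.50, 12.7, 9.54 and 8.44 CPM, overlapping groups (1.46 ± 0.33, but 0.68 without animals 2 and 4). Of 26 tested rows of cell cycle genes, none rose and 1 fell, the inhibitor CDKN2B, from 25.9 ± 8.10 to 10.2 ± 2.87 CPM (-1.34 ± 0.07). The proliferation markers MKI67 and TOP2A had 0.07 and -0.15.

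**Figure D3:**
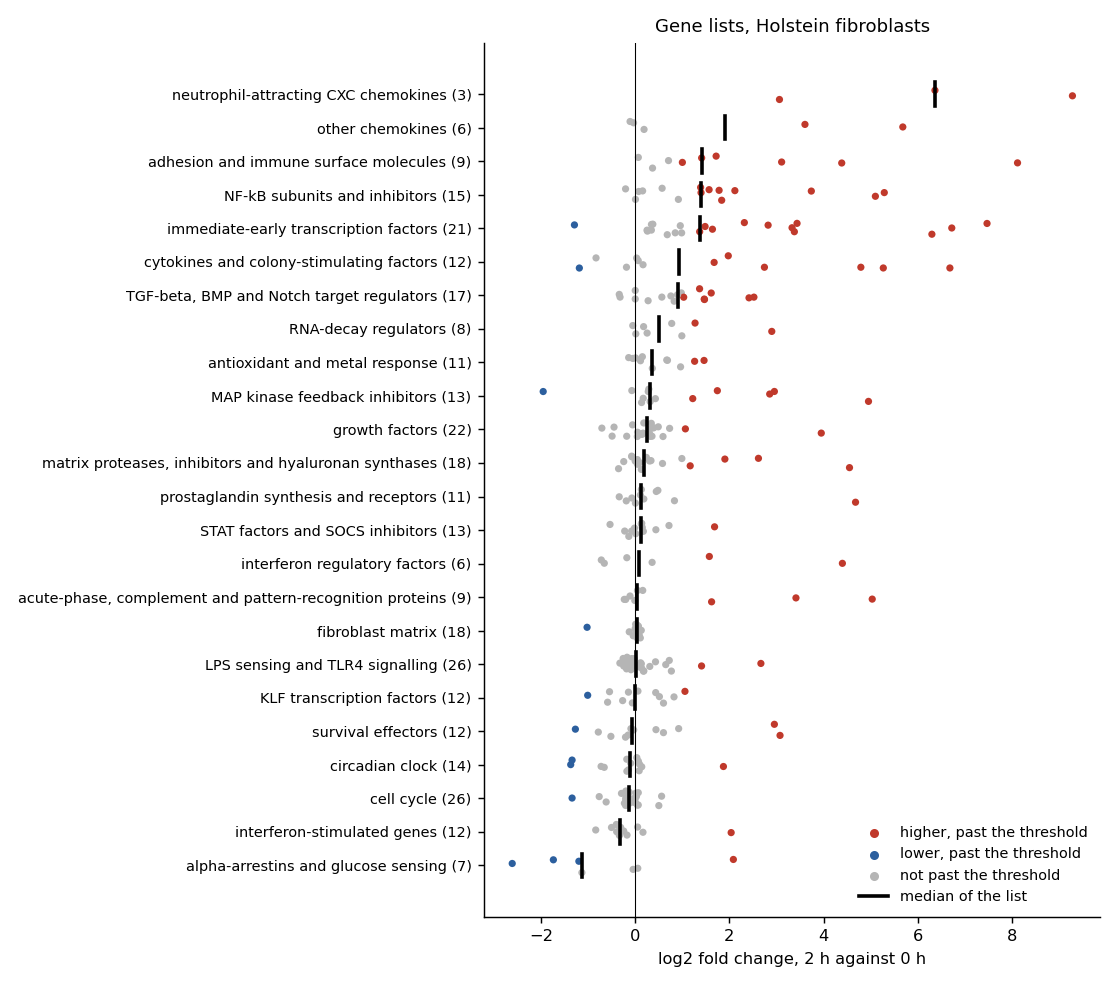
Log2 fold change at 2 h of every tested member of 24 gene lists, one point per gene, with the number tested in brackets, coloured by whether the gene passed the threshold, and a black bar at each list's median. The lists with the highest medians are chemokines (6.36 and 1.90), surface molecules (1.41) and NF-kB members (1.40), and alpha-arrestins have the lowest (-1.13). CX3CL1 counts in its list's median but is not drawn. The medians include genes that were tested only because of their 2 h levels (IL8, CX3CL1, CCL5, CD83, VCAM1 and TNFAIP3 in these lists), so the order of the lists depends in part on the filter.

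Some of the largest changes belonged to genes outside these lists. RND1, a small GTPase that loosens cell contacts and the actin skeleton, rose from 1.30, 1.28, 1.18 and 2.09 CPM to 51.6, 129.0, 46.3 and 115.7 CPM (5.76). SLCO4A1, an organic anion transporter, rose from 0.069 ± 0.072 to 5.91 ± 2.44 CPM (6.44, with 5.72 without animals 2 and 4 and 7.43 without animal 1). ZBTB46, a transcription factor known from dendritic cells, rose from 11 to 1036 counts, a ratio of 89.9 (95% counting interval 50.1 to 181). XIRP1, an actin-binding protein of muscle, rose from 0.831 ± 0.282 to 49.3 ± 18.8 CPM (5.86), and its row lies 16869 bases from that of CSRNP1, another gene that rose. CTSW, a protease known from cytotoxic lymphocytes, rose from 0.259 ± 0.032 to 14.8 ± 5.66 CPM (5.73). CTSW lies on chromosome 29, 195 bases from FIBP and 7689 bases from FOSL1. SLCO4A1, ZBTB46 and CTSW had passed the filter only through their 2 h samples, so for them a rise was a condition of being tested.

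Among the falls outside the lists, KCNE4 (chromosome 2, 111987824 to 111991013), a regulatory subunit of potassium channels, had the most negative fold change. It went from 4.77, 10.5, 5.52 and 6.82 CPM to 0.346, 0.733, 0.326 and 0.466 CPM (-3.89 ± 0.17). KCNE4 had passed the filter only through its 0 h samples, as had ZNF280C and CNKSR1 below. For these genes, groups that do not overlap were thus a condition of being tested. LRIG3, a membrane protein that modulates receptor tyrosine kinases, went from 36.7, 40.5, 38.0 and 38.7 CPM to 7.18, 7.49, 8.00 and 7.23 CPM (-2.36 ± 0.07). CHAC1, which degrades glutathione and is induced by amino acid stress, fell from 22.3 ± 3.40 to 5.06 ± 1.25 CPM (-2.15 ± 0.12), the homeobox gene IRX5 from 12.6 ± 1.46 to 3.61 ± 0.37 CPM (-1.80 ± 0.11), and ZNF280C, PTPDC1 and RWDD3 had -1.99 ± 0.19, -1.89 ± 0.18 and -1.77 ± 0.15. Calls of 3 more genes were lost under other settings. KIAA0226L (-2.11 ± 0.49) was at 0.452 and 0.499 CPM in animals 1 and 2 at 2 h but at 2.91 and 4.21 CPM in animals 3 and 4, against 3.80 to 9.11 CPM at 0 h, and had -1.56 without animal 1 and -2.72 without animal 3. PDK4, a brake on glucose oxidation, was at 1.85, 3.81, 1.42 and 0.299 CPM at 0 h and 0.266, 1.54, 0.150 and 0.151 CPM at 2 h (-2.09 ± 0.35), and PDK4 lost its call in the fit without the pairing of animals (-1.81), as did KIAA0226L (-1.57). Without animals 2 and 4 PDK4 had -2.98, but its mean level no longer passed 1 CPM. CNKSR1, a scaffold protein, had -1.81 ± 0.37, and lost its call without animal 1 (-1.92) and without animal 2 (-1.30), and also without both animals 2 and 4 (-1.27).

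The animals shared the direction of the response but not its size in the inflammatory genes. Of the 12 genes of the chemokine and cytokine lists that rose, 9 were higher at 2 h in both animals 2 and 4 than in both animals 1 and 3, an order found in 44.2% of all 285 higher genes and in 19.0% of all genes tested. The median log2 change over the 285 genes was 1.53, 1.67, 1.43 and 1.58 in animals 1 to 4, and over all tested genes -0.06, 0.00, -0.02 and -0.02. Animal 3 had the smallest change in 113 of the 285 genes and animal 2 the largest in 135. Animals 2 and 4 are those whose 0 h libraries had fewer covered bases per count of COL1A1, and the part of this in the order was not tested.

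The Angus cultures were used to ask which of these changes differed by breed. The interaction of breed and LPS, tested over 12950 genes with edgeR's likelihood-ratio test, was past the threshold for 46 genes in the Holstein direction (0.355%) and 30 in the Angus direction (0.232%). Of the Holstein higher genes, 264 could be tested and 32 had a change that was larger in Holstein, while 4 had a smaller one. As these genes were chosen on the same Holstein samples, a larger change in Holstein is favoured by the choice, and the counts are a description. The quasi-likelihood test called 17 of the 32. Over all genes, the count of 76 differences fell to 39 with the quasi-likelihood test and to 28 in the fit without the pairing of animals.

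Of the 87 genes chosen by the naming rule, 22 differed past the threshold, 18 with a positive difference (Holstein minus Angus) and 4 with a negative one, and 11 of the 22 also by the quasi-likelihood test. DUSP6, EGR3, IRF1, RPL7A, RASL11B and LOC100847896 met the rule's part for the largest differences, which also asks that the animals of the breeds do not overlap. The count is thus fixed in part by the choice and is a description. DUSP6 changed by 2.85 to 2.96 (log2, pseudocount 0.1 CPM) in the Holstein animals and by -0.05 to 1.75 in the Angus animals, a difference of 2.08 ± 0.33 SE (FDR 3.1e-07, and 0.015 by the quasi-likelihood test of edgeR). EGR3 changed by 5.21 to 6.54 in Holstein and by 3.49 to 4.20 in Angus (difference 1.94 ± 0.36). IRF1 changed by 3.68 to 4.95 and by 1.01 to 3.63 (2.18 ± 0.47), its quasi-likelihood FDR was 0.059 in edgeR, and the call was lost without the pairing of animals (1.995). NR4A1 (1.33 ± 0.17), ID1 (1.51 ± 0.24), SMAD7 (1.04 ± 0.14), IER3 (1.10 ± 0.22), HBEGF (1.61 ± 0.32) and KLF10 (1.37 ± 0.16) also had larger changes in Holstein, by both tests, and with every Holstein animal beyond every Angus animal. KLF10 changed by 0.80 to 1.31 in Holstein and by -0.64 to 0.08 in Angus. NFKBIA differed by 1.48 ± 0.41, although its quasi-likelihood FDR in edgeR was 0.12. Without the 4 animals, 2 of each breed, whose libraries had fewer covered bases per count of COL1A1, NFKBIA differed by 0.99 and SMAD7 by 0.97, short of the threshold. Also short of it in that fit were the differences of HEY1 (0.99), ZBTB46 (0.92), ZFP36L2 (0.82) and ARRDC2 (0.77). RPL7A kept a large difference there (-2.64) but missed the FDR limit.

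RASL11B, a small GTPase of the RAS family, changed by -1.76 to -0.70 in Holstein and by -0.52 to 0.46 in Angus, a difference of -1.64 ± 0.30. LOC100847896, which overlaps TP53I11 and TSPAN18, rose less in Holstein (-1.58 ± 0.42, quasi-likelihood FDR 0.075 in edgeR). The call of LOC100847896 was lost in each fit without Angus animal 1 or 4 or Holstein animal 1 or 4 (-1.45 to -1.34). RPL7A, a ribosomal protein gene that shares sequence with processed copies, was the most negative of the named differences (-2.36 ± 0.68). With the 16 samples scaled together, RPL7A was at 116.1 and 131.7 CPM in Holstein animals 1 and 2 at 2 h and at 126.4 and 178.8 CPM in Angus animals 1 and 3 at 0 h, and at 579.8 to 848.4 CPM in the other 12 libraries. Its call was lost without Holstein animal 1 (-1.87) or 2 (-1.98), without Angus animal 1 (-1.87) or 3 (-2.07), without the pairing of animals (-1.44) and by the quasi-likelihood test. For 5 of the large inflammatory rises the difference was not past the threshold, with 1.92 ± 0.67 for IL8 (FDR 0.088 by edgeR's likelihood-ratio test), 0.91 ± 0.41 for CXCL2 (0.27), -0.55 ± 0.83 for IL6 (0.89), 0.04 ± 0.38 for PTGS2 (0.99) and 0.09 ± 0.53 for TNFAIP3 (0.98). These errors are wide, and the fits do not show that the breeds respond alike. CX3CL1, TNF, ARC, VCAM1, HAS1, CISH and CNKSR1 did not pass the filter over the 16 samples.

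**Figure D4:**
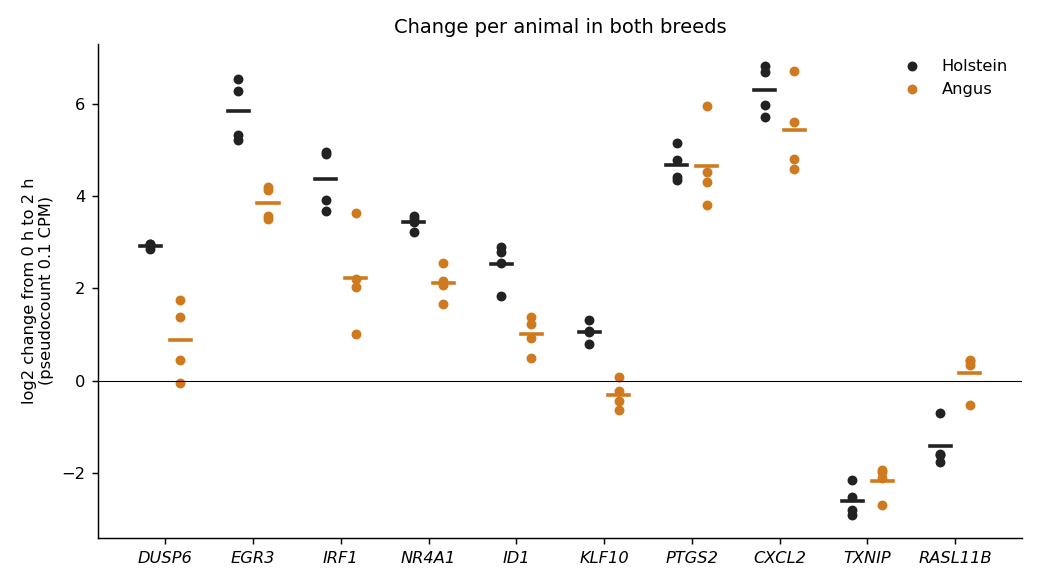
Log2 change from 0 h to 2 h (pseudocount 0.1 CPM) of 10 genes in each of the 4 Holstein (black) and 4 Angus (orange) animals, with bars at the means. For DUSP6, EGR3, IRF1, NR4A1, ID1 and KLF10 every Holstein animal lies above every Angus animal, for RASL11B every one lies below, and PTGS2, CXCL2 and TXNIP overlap. Such separation was a condition for naming DUSP6, EGR3, IRF1 and RASL11B from the breed comparison, so for these genes it is no separate result.

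Many of the genes that had changed at 2 h changed again by 8 h. In the comparison of Holstein 8 h with 2 h, fitted on those 8 samples, 266 of 13106 genes were higher (2.03%) and 266 lower (2.03%). Of the genes higher at 2 h, 284 were tested, and 147 were lower again at 8 h, 14 were higher still and 123 were not past the threshold. Of the genes lower at 2 h, 116 were tested, and 59 were higher at 8 h, none was lower and 57 were not past the threshold. Both comparisons share the 2 h samples on which the genes were chosen, which favours a return, so these counts are a description.

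Immediate-early transcription factors and TNF were among the genes that fell back. FOSB changed by -6.95 ± 0.19, ARC by -7.52 ± 0.57, EGR3 by -6.20 ± 0.18 and TNF by -5.21 ± 0.36 between 2 h and 8 h. With the 12 Holstein samples scaled together, FOSB averaged 0.862 ± 0.334 CPM at 0 h, 90.1 ± 21.1 CPM at 2 h and 0.733 ± 0.183 CPM at 8 h. LIF (-3.26 ± 0.07), HBEGF (-4.42 ± 0.22), DUSP5 (-4.15 ± 0.16) and IRF1 (-1.69 ± 0.14) also fell. A second group went on rising: CFB by 4.28 ± 0.13, PDPN by 3.097 ± 0.22, CXCL6 by 2.90 ± 0.12, VCAM1 by 2.65 ± 0.13, IL6 by 2.12 ± 0.13, CCL5 by 1.81 ± 0.21 and PTX3 by 1.07 ± 0.21. PDPN, a membrane mucin, had barely passed the threshold at 2 h (1.01 ± 0.34), had a change of -0.48 in animal 3, was not tested without animals 2 and 4, and was not called without animal 1 (1.02) or without animal 4 (0.73). CXCL6 averaged 11.3 ± 9.24, 89.2 ± 66.5 and 642 ± 378 CPM at the 3 times. IL8 had 0.95 ± 0.11 and CCL2 0.39 ± 0.08, short of a fold change of 2. KCNE4 (3.96 ± 0.18), LRIG3 (2.39 ± 0.10), TXNIP (2.35 ± 0.09), CHAC1 (2.15 ± 0.17) and ARRDC4 (2.01 ± 0.12) rose from their low point at 2 h, and LRIG3 averaged 39.3 ± 1.45, 7.64 ± 0.39 and 40.2 ± 5.04 CPM at 0, 2 and 8 h. FOS, lower at 2 h, had 0.01 ± 0.09.

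**Figure D5:**
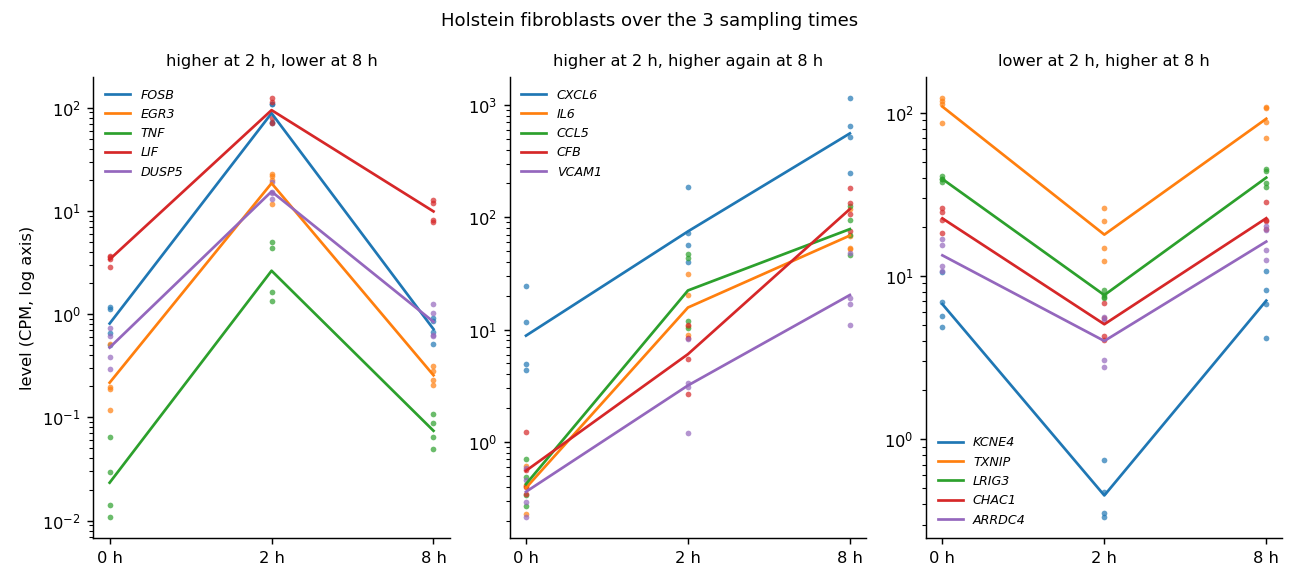
Levels (CPM, log axes, 12 Holstein samples scaled together) at 0 h, 2 h and 8 h, with a point for each of the 4 animals and a line through the geometric means. TNF and FOSB return almost to their 0 h levels by 8 h, CXCL6 and CFB rise at each step, and the genes on the right dip at 2 h, as LRIG3 does from 39.3 to 7.64 CPM and back to 40.2 CPM.

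The median annotated span of the genes that changed was shorter than that of all genes tested, a description with no test. This span, introns included, had a median of 12464 bases (quartiles 5974 and 31183) for the higher genes and of 10439 bases (4241 and 21670) for the lower genes, against 20803 bases (7315 and 55023) for all genes tested. Whether length itself bears on the calls was not tested. Of the 409 genes, 49 lay in 24 runs in which neighbouring tested genes moved in the same direction, 21 of higher genes and 3 of lower genes. The counts of runs are a description, as the number to be found by position alone was not computed. They included CXCL6 with CXCL2 on chromosome 6, IL1RL1 with IL18R1 on chromosome 11, IRX3 with IRX5 on chromosome 18 and TNFSF18 with TNFSF4 on chromosome 16. In other runs a gene is joined by a LOC row that overlaps it, as for IRF1, PLAUR, PTGS2, BHLHE40, ZFP36L2 and TXNIP. There the same reads can count for both rows. Rows can also abut, as do CCDC85B and FOSL1 on chromosome 29, 136 bases apart. In such runs reads cannot be assigned with certainty.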

How the data were processed

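Poly-A RNA of DF cultures of 4 Holstein and 4 Angus heifers was sequenced with unstranded libraries. According to the study's methods, reads were aligned with NextGENe 2.3.4 to the bovine genome UMD v3.1 and counted per annotated gene and per interval between genes, and the submitters' processing notes name CASAVA 1.7. The values used were the deposited read counts, whole numbers that the authors had not normalised. The deposited mean coverage of each row (a signal) was used for 1 purpose, the covered bases per count of COL1A1. Rows without a symbol were kept in the library sizes and in the adjustment, as intervals of the same tables, and held 12.28 to 14.77% of the counts of the 8 libraries.

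Counts were scaled by TMM and fitted in edgeR 4.0.16 (R 4.3.3) with a likelihood-ratio test, the animal as a block and Benjamini-Hochberg adjustment over all rows kept. Rows needed at least 1 CPM in 50% of the samples compared. A call needed an FDR under 0.05, a fold change of at least 2 and a mean above 1 CPM. SE is that of the log2 fold change, SD is over 4 animals, CPM per sample is TMM-scaled, and the change by animal used a pseudocount of 0.1 CPM. Holstein 2 h against 0 h and 8 h against 2 h each used their own 8 samples, and the breed interaction used 16. The numbers pair the samples because they name the animals: deviations from group means correlated by at least 0.607 between the 0 h and 2 h samples of one animal, and by -0.231 on average between animals. The study's methods state no such block. Counting intervals are exact 95% Poisson-based intervals and, like the floor of 3 counts, cover counting error only, since reads carried no molecular identifiers. Genes named were the 15 largest rises and 12 largest falls that were called, moved the same way in all 4 animals and had no LOC symbol, up to 4 called members of each list with a few fixed members, and 3 in each direction for the other contrasts. Other list members quoted were chosen after their values were seen. The members and lists were chosen with earlier results of these data known. Alternatives were edgeR's quasi-likelihood test, DESeq2 1.42.0, RLE size factors, other filters and thresholds, no animal block, and leaving out animals. The fits were tested on simulated data. Symbols and coordinates are those of the files, and no sequence was read. A total of 3903 symbol rows overlap another symbol row, and reads in such an overlap cannot be assigned with certainty. They include the rows of PTGS2, BHLHE40, PLAUR, ZFP36L2, ZFP36, TNF, IL11, PTX3, IER3, COL1A1 and RPL7A.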

Additional observations from a re-analysis of the deposited data

Results flagged for a closer look

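Of 261 sets of 4 animals examined among the named genes (levels at 0 h, levels at 2 h and changes), 13 had a highest or lowest animal whose gap to the nearest other was, as a share of the whole range, above Dixon's 95% critical value for 4 samples. Chance gives about 1 in 20, which is close to the share found, so the cases below are a description. They fell on animals 1 to 4 in 2, 4, 2 and 5 cases.

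At 0 h, animal 4 stood above the others for PTGS2, at 13.7 CPM against 5.49 to 6.21 CPM. The same held for RND1, at 2.09 CPM against 1.18 to 1.30 CPM, for ZNF280C, at 3.22 CPM against 2.62 to 2.72 CPM, and for ARC, at 0.043 CPM against 0.011 to 0.014 CPM. At 2 h, animal 2 was highest for CCL2, at 294.9 CPM against 118.6 to 139.0 CPM, and for PDK4, at 1.54 CPM against 0.150 to 0.266 CPM. It was lowest for HAS1, at 2.04 CPM against 4.64 to 5.15 CPM, and for CNKSR1, at 0.147 CPM against 0.518 to 0.589 CPM. ID1 at 2 h was highest in animal 1, at 67.2 CPM against 48.4 to 49.5 CPM. Among the log2 changes, animal 3 had the smallest for KLF2 (-0.63, others -1.14 to -1.06) and for CMPK2 (0.80, others 2.15 to 2.39). HBEGF changed most in animal 4 (4.28, others 3.32 to 3.46) and RASL11B least in animal 1 (-0.70, others -1.76 to -1.58).

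The change at 2 h differed between breeds in the interaction test for 22 of the 87 genes chosen by the naming rule. As the rule takes in the largest such differences in each direction, the count is fixed in part by the choice. The Holstein minus Angus difference in log2 fold change was positive for 18. It was 2.08 for DUSP6, 1.94 for EGR3, 1.61 for HBEGF, 1.51 for ID1, 1.37 for KLF10, 1.33 for NR4A1, 1.10 for IER3, 1.04 for SMAD7 and 1.01 for ZFP36L2, which also passed by edgeR's quasi-likelihood test. It was 2.29 for CTSW, 2.24 for DUSP5, 2.18 for IRF1, 1.91 for ZBTB46, 1.48 for NFKBIA, 1.31 for ERRFI1, 1.29 for MAP3K8, 1.26 for ARRDC2 and 1.08 for HEY1, which did not. Among the negative differences, those of RASL11B (-1.65) and ZNF280C (-1.48) passed by both tests, and those of RPL7A (-2.36) and LOC100847896 (-1.58) did not pass by the quasi-likelihood test.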

How the results depend on the processing

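The 409 calls at 2 h became 4940 (2081 higher, 2859 lower) with the FDR limit alone and 1188 (598 and 590) with a fold change of 1.5, so the count and the share that is higher rest on the fold threshold. Under the other settings there were 370 to 440 calls, and 406 to 441 when 1 animal was left out. Without the replicate block, that is without the pairing of animals, there were 385, and 370 with the quasi-likelihood test as well, an alternative chosen after seeing the data. The 76 breed differences became 28 without the replicate block and 39 with the quasi-likelihood test, and 58 to 112 when 1 animal was left out. The 532 changes from 2 h to 8 h became 503 without the block and 511 to 598 when 1 animal was left out. Of 84 named genes called at 2 h, 70 kept the call in every setting run, and 14 lost it in at least 1: ADAMTS4, CNKSR1, COL1A1, FOS, HEY2, KIAA0226L, KLF10, KLF2, LOC100847896, MT2A, PDK4, PDPN, RPL7A and TNF. None changed direction. The causes were not tested. With 4 animals, 3 counts as a floor and no untreated 2 h culture, changes in genes under about 1 CPM and effects of time alone could not be assessed.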

Other observations

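Genes with ZNF or ZSCAN symbols, most of them zinc-finger transcriptional regulators, were looked at after their values were seen. Of 272 tested, 16 fell, among them ZNF280C, ZNF22, ZSCAN12 and ZNF84, and 2 rose, ZNF385A and ZNF469. The share that fell was 5.88%, against 0.951% of all genes tested. Their median log2 fold change was -0.32, against -0.02 over all genes, and 225 of them (82.7%) had a value below 0, against 55.1% of all genes. Without animals 2 and 4 the median was -0.30, against -0.04 over all genes, and 23 fell. These counts are a description, and no test of the group was made.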
